A study of Mus musculus with 6 samples.

Results

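The 9 genes described here carry the Notch signal from the cell surface to its direct target genes. They are the receptors *Notch1*, *Notch2* and *Notch3*, the fringe gene *Lfng*, the nuclear complex genes *Rbpj* and *Maml1*, and the targets *Hes1*, *Dtx1* and *Nrarp*. A probe set (the group of array probes that reads 1 transcript) was included where the platform annotation named exactly 1 of these genes, which gave 16 of the 22690 probe sets in the deposited table, for 9 of 12393 genes named by 1-gene probe sets. Each gene had 2 probe sets except *Hes1* and *Dtx1*, with 1 each.

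Expression was measured on 6 Affymetrix mouse genome arrays, 3 for each of 2 genotypes, in thymocytes of untreated C57BL6 mice of 3 weeks of age. All 6 samples carry the CD3e-/- genotype, a deletion of a T cell receptor signalling chain that holds thymocytes at the double negative stage, before CD4 and CD8 appear. The genotype given for the samples labelled control names no transgene, and those labelled SCLtg LMO1tg also express the oncogenes SCL (also named *Tal1*), from the Sil promoter (Sil-SCL), and LMO1, from the Lck promoter (Lck-LMO1), so LMO1 is driven by a promoter of the T lineage. The study compared the genotypes to find genes by which pre-leukemic thymocytes renew themselves, and it tested elsewhere how *Notch1* acts with these oncogenes. Whether the 3 samples of a genotype were 3 animals is not given in the labels, and the p-values below therefore rest on the spread between these arrays alone, which may be technical.

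Notch receptors are cleaved when they meet a ligand of the Delta or Jagged family on a neighbouring cell, and the released intracellular domain enters the nucleus, where it joins the DNA-binding protein RBPJ and a Mastermind coactivator such as MAML1 and switches on target genes. Fringe enzymes such as LFNG add sugars to the receptor that favour signalling by Delta ligands. In the thymus, NOTCH1 commits progenitors to the T lineage and carries them to the stage at which the pre-T cell receptor is tested, and activating NOTCH1 mutations are common in T cell acute leukemia.

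Of the transgenes, *Lmo1* went against the labels and passed the test, while *Tal1* lay with the labels but was too dim to test. On the log2 scale of the deposited values, the *Lmo1* probe set stood at 5.11, 5.07 and 4.86 in the arrays labelled SCLtg LMO1tg. Values are given for replicates 1 to 3, the order used throughout. The arrays labelled control stood at 6.64, 6.84 and 6.77. The 3 arrays labelled SCLtg LMO1tg were all below the 3 labelled control, with a difference of −1.74 (SE 0.14, adjusted p = 0.00161 from limma). *Tal1* lay the other way, in the dim range that was not tested, at 4.55, 4.63 and 4.71 against 4.35, 4.27 and 4.44 in the arrays labelled control. Its 3 arrays labelled SCLtg LMO1tg were all higher, by 0.28 on average, as the labels say. Of all tested probe sets, 7.35% lay higher without overlap. With no brightness filter, the *Tal1* difference had an adjusted p of 0.643 from limma. *Cd3e*, deleted in both genotypes, read 8.58 and 8.52 on average. The sources used here do not say whether these probe sets lie in the transgenes or in the deleted part. All differences below are the labelled SCLtg LMO1tg mean minus the labelled control mean. *Ptcra*, the called Notch target described below, has the opposite direction in the gene list of the study, and every sign would turn if the labels were exchanged.

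The 6 arrays correlated at 0.932 to 0.988 with each other. They parted by the mean of 18 probe sets for spiked-in bacterial transcripts (the hybridization controls), which was 8.91 to 9.49 in SCLtg LMO1tg replicates 2 and 3 with control replicate 1 (the low set here) and 10.40 to 10.62 in the other 3 arrays, SCLtg LMO1tg replicate 1 with control replicates 2 and 3 (the high set here). Each set holds arrays of both labels, and the mean of these controls did not separate the labels (exact two-sided permutation p = 0.2, where 0.1 is the smallest possible). The 3′ minus 5′ values of the *Actb* and *Gapdh* control probe sets, a sign of RNA quality, averaged 2.504 ± 0.23 (SD, n = 3) and 3.24 ± 0.23 (SD, n = 3) in the arrays labelled SCLtg LMO1tg and 2.29 ± 0.71 and 2.85 ± 0.42 in those labelled control (exact permutation p = 0.8 and 0.3). Of 13793 probe sets tested, 38.5% had no overlap between the hybridization sets, against 13.2% with no overlap between the labels. Differences within each set are therefore given for the members and for the other genes named. Each compares 2 arrays of one label with 1 of the other. Where the labels do not overlap, the sign within each set is fixed in advance and adds no evidence.

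None of the 9 genes passed the test. Of the 16 probe sets, 14 were bright enough to be tested, and 0 of the 14 passed limma at an adjusted p under 0.05, where 0.102% of all tested probe sets did, 0.0508% in each direction. At an adjusted p under 0.1 it was again 0 of 14, against 0.138%. Past an unadjusted p of 0.05 there were 2 of 14, both higher in the arrays labelled SCLtg LMO1tg, where 8.87% of all tested probe sets passed that level and 6.19% did so with a higher mean. These were the *Dtx1* probe set and 1 of the 2 of *Nrarp*. They were also the only 2 of 14 with no overlap between the labels in either direction. Of all tested probe sets, 13.2% had no overlap in either direction, and 7.35% lay higher without it. Rank products, the authors' kind of test, recomputed at a limit on false positives looser than the one the study names and without its filter on absent calls, called 0 of the 14 and 0.783% of all. The mean was higher in the arrays labelled SCLtg LMO1tg for 9 of 14 member probe sets, against 49.8% of all, and the median member difference was 0.13, against −0.00065 over all.

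**Figure D1:**
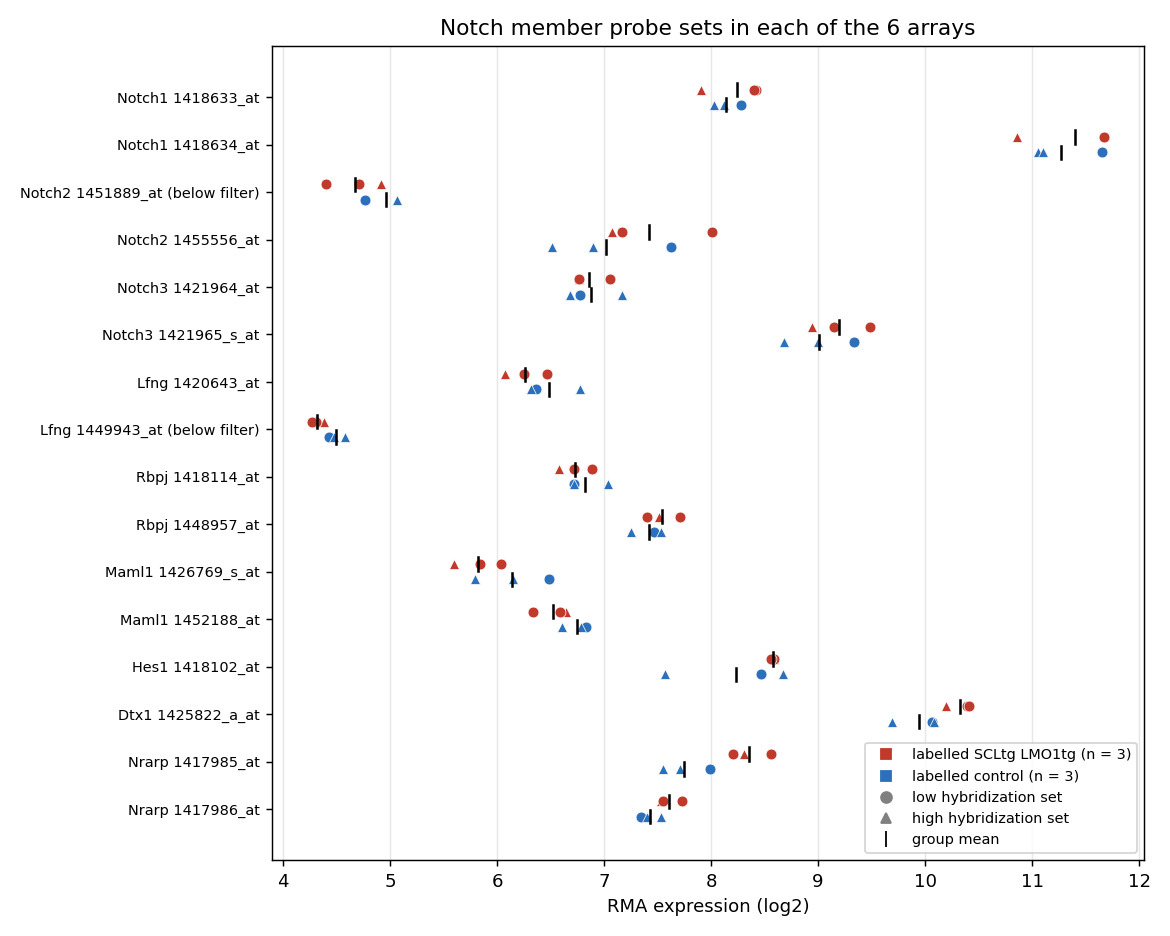
RMA expression (log2, x axis) of the 16 member probe sets (y axis) in each of the 6 arrays, coloured by label, with circles for the low and triangles for the high hybridization set and a black bar for each group mean of 3 arrays. *Nrarp* 1417985_at and *Dtx1* show no overlap between the labels among the tested probe sets, the *Notch1* probe sets part by hybridization set instead, and 1 *Hes1* array, control replicate 3, lies at 7.57 while the other 5 lie between 8.47 and 8.67.

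Upstream sequence is shown for *Lfng*, a member with a match to the core RBPJ motif, for *Nrarp*, the member with the largest difference, and for *Ptcra*, the called Notch target. Of the 9 members, 8 had a promoter in the RefSeq table of build GRCm38.p6. Each run below is the 250 bases before the start of the gene, 5′ to 3′ on the gene's own strand, in lower case with matches to TGGGAA or its reverse complement in capitals, extended where the match is GTGGGAA. The positions are chr5:140607091-140607340 (+) for *Lfng*, chr2:25180508-25180757 (+) for *Nrarp* and chr17:46763713-46763962 (−) for *Ptcra*.
*Lfng*: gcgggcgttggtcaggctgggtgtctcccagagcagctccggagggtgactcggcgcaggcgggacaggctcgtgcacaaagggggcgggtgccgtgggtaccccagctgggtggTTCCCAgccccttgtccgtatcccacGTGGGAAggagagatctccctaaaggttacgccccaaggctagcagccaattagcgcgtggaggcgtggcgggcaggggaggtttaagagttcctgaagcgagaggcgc
*Nrarp*: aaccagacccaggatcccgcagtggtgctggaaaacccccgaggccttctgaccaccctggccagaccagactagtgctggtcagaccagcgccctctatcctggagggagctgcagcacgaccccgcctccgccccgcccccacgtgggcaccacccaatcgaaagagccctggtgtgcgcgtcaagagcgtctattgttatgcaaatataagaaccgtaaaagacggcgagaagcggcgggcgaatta
*Ptcra*: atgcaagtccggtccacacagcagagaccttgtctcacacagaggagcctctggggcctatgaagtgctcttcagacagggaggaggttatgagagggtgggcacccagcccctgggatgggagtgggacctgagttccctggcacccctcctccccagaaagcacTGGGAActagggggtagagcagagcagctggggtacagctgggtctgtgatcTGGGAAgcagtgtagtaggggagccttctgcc
*Lfng* held 2 matches, 135 and 108 bases before the start, the second of them GTGGGAA, and *Ptcra* 2, at 84 and 32 bases. *Nrarp* held none in this window, nor did *Dtx1*, *Maml1* or the receptors, while *Rbpj* held matches before alternative starts. TGGGAA on either strand occurred in 21.6% of 32851 promoters of this length and GTGGGAA in 5.42%, and a match describes these letters and marks no site of binding.

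*Notch1*, the main Notch receptor of early thymocytes, did not differ between the labels beyond its spread, and its arrays parted by hybridization set. Its brighter probe set (1418634_at) stood at 10.86, 11.67 and 11.68 in the arrays labelled SCLtg LMO1tg and at 11.66, 11.05 and 11.10 in those labelled control. The labels overlapped, since 1 array of each label stood with the other label's 2. The difference was 0.13 (SE 0.25, 95% interval −0.44 to 0.71, adjusted p = 0.862 from limma), so a rise above 0.71 or a fall beyond 0.44 lay outside the interval. The 3 arrays of the low set averaged 11.67 and the 3 of the high set 11.00, with no overlap, and within the sets the labels differed by 0.017 and −0.22.

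The dimmer *Notch1* probe set (1418633_at) showed the same parting. It read 7.91, 8.42 and 8.40 in the arrays labelled SCLtg LMO1tg and 8.28, 8.12 and 8.03 in those labelled control, a difference of 0.10 (SE 0.18, 95% interval −0.29 to 0.50) that was 0.13 within the low set and −0.16 within the high set. All 3 arrays of the low set, at a mean of 8.37, were above all 3 of the high set, at 8.02.

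*Notch2*, a receptor best known in B cells and other tissues, had the widest spread between arrays among the members. The tested probe set (1455556_at) gave 7.07, 7.17 and 8.01 in the arrays labelled SCLtg LMO1tg and 7.63, 6.90 and 6.52 in those labelled control. The labels overlapped at a difference of 0.40 (SE 0.32, 95% interval −0.31 to 1.12, adjusted p = 0.689 from limma). The low set was again above the high set, at 7.60 against 6.83, and its residual spread was wider than that of 97.5% of the tested probe sets. Within the low set the difference was −0.037 and within the high set 0.36. Leaving out 1 array moved it from 0.11, without SCLtg LMO1tg replicate 3, to 0.71, without control replicate 1. The other *Notch2* probe set (1451889_at) was too dim to test and went the other way, with means of 4.67 and 4.97 and the low set below the high set.

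*Notch3*, a receptor expressed in immature thymocytes, was read by 2 probe sets that did not move together. At 1421965_s_at the arrays labelled SCLtg LMO1tg stood at 8.95, 9.15 and 9.48 and those labelled control at 9.33, 8.68 and 9.002. These overlapped between the labels (difference 0.19, SE 0.21) and parted by hybridization set, at 9.32 and 8.88, with differences of −0.014 and 0.11 within the sets. The suffix _s marks probes that Affymetrix found shared between transcripts, although the annotation names *Notch3* alone. At 1421964_at the values were 6.77, 7.06 and 6.77 against 6.78, 6.68 and 7.17, a difference of −0.011 (SE 0.17) with overlap between labels and between sets and 0.14 and −0.16 within the sets. Over the receptors, 4 of 5 tested probe sets parted by hybridization set, each with the low set higher, and 2 of the 4 read *Notch1*. Of all tested probe sets 38.5% parted by set, 19.2% with the low set higher, and of the members 4 of 14 did. By label 0 of the 5 parted, where 13.2% of all tested probe sets did.

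**Figure D2:**
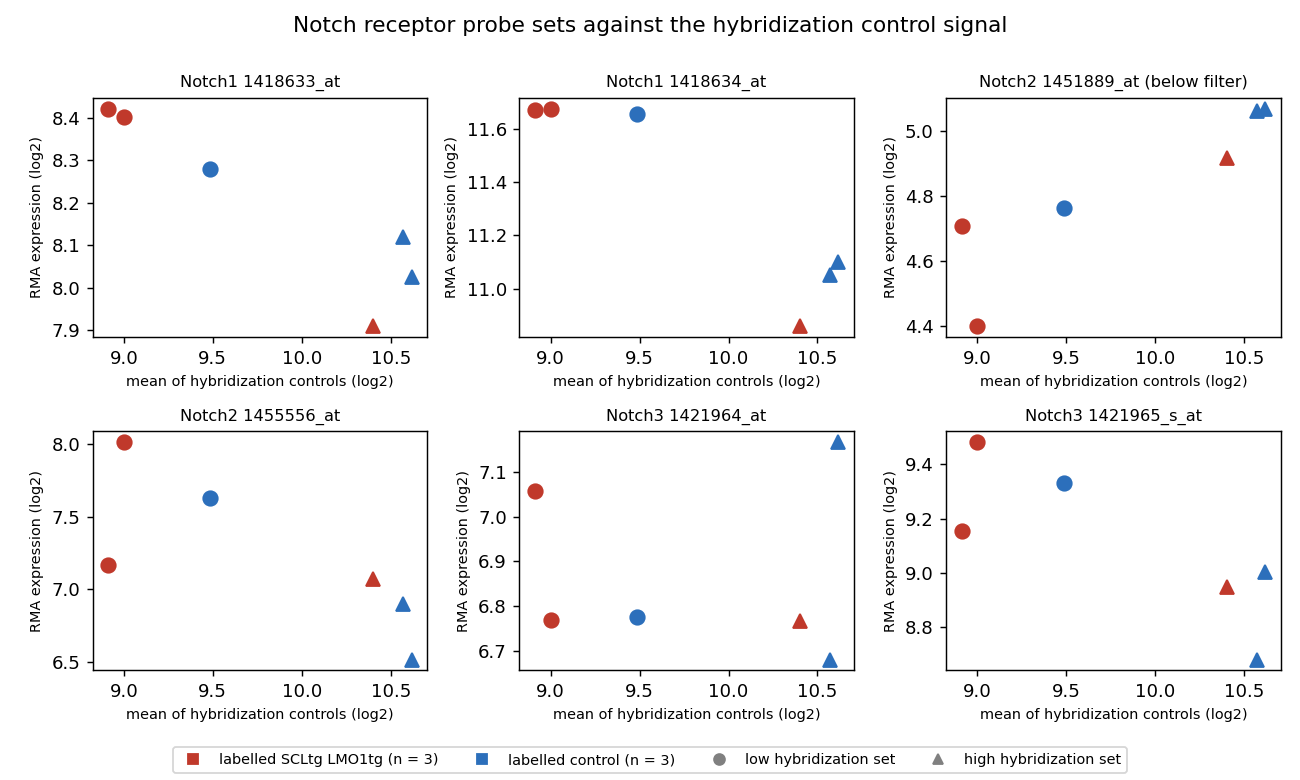
RMA expression (log2, y axis) of the 6 receptor probe sets against the mean of the hybridization controls (log2, x axis), 1 point per array, coloured by label and shaped by hybridization set. The 3 low-set arrays lie above the 3 high-set arrays for both *Notch1* probe sets, *Notch2* 1455556_at and *Notch3* 1421965_s_at, and below them for *Notch2* 1451889_at, which was not tested; y axes differ between panels and do not start at 0.

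*Lfng*, the fringe glycosyltransferase, was lower on average at both probe sets in the arrays labelled SCLtg LMO1tg and did not pass the test. The tested probe set (1420643_at) read 6.07, 6.25 and 6.47 against 6.37, 6.32 and 6.78 in the arrays labelled control. The highest array labelled SCLtg LMO1tg exceeded 2 of the 3 labelled control, and the difference was −0.22 (SE 0.18, 95% interval −0.62 to 0.18, adjusted p = 0.692 from limma). Within the high set it was −0.48 and within the low set −0.0034, and it ranged from −0.33 without SCLtg LMO1tg replicate 3 to −0.077 without control replicate 3. At the dim probe set (1449943_at) the values were 4.38, 4.31 and 4.27 against 4.43, 4.47 and 4.58. There the labels did not overlap, but the values lie under the level at which a probe set was tested.

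*Rbpj*, which encodes the DNA-binding protein that the receptor's intracellular domain joins, lay within its spread at both probe sets. One (1418114_at) read 6.58, 6.89 and 6.72 against 6.72, 7.04 and 6.72 in the arrays labelled control, and the other (1448957_at) 7.51, 7.71 and 7.40 against 7.47, 7.53 and 7.25. Their differences had opposite signs, −0.10 (SE 0.16) and 0.12 (SE 0.15), and the labels overlapped at both. The 95% intervals ran from −0.45 to 0.26 and from −0.22 to 0.47. Within the low and the high set the first differed by 0.087 and −0.30 and the second by 0.086 and 0.12.

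*Maml1*, the coactivator gene of the complex, had lower means in the arrays labelled SCLtg LMO1tg at both probe sets, without passing the test. The probe set 1426769_s_at read 5.60, 6.03 and 5.84 against 6.48, 6.15 and 5.79 in the arrays labelled control (difference −0.32, SE 0.20, adjusted p = 0.640 from limma). The probe set 1452188_at read 6.65, 6.59 and 6.34 against 6.84, 6.61 and 6.79 (difference −0.22, SE 0.15, adjusted p = 0.657 from limma). The labels overlapped at both, control replicate 3 being among the low arrays at the first and control replicate 2 at the second. The differences were negative within both hybridization sets, at −0.54 and −0.38 for the first and −0.37 and −0.054 for the second. The first became −0.49 when control replicate 3 was left out and −0.15 when control replicate 1 was.

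The targets were the group of members in which all 4 tested probe sets had higher means in the arrays labelled SCLtg LMO1tg, with a median difference of 0.36. None passed the test over all probe sets. The marker genes of other cells that moved with the labels are given after the target values, since in bulk thymus more cells of a type and more RNA per cell cannot be told apart.

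*Nrarp*, a target whose protein binds the Notch complex and dampens it, and whose printed promoter held no match to TGGGAA, had the largest difference among the members. At 1417985_at the arrays labelled SCLtg LMO1tg stood at 8.31, 8.56 and 8.21 and those labelled control at 7.99, 7.55 and 7.71. All 3 arrays labelled SCLtg LMO1tg were above all 3 labelled control. The difference was 0.61 (SE 0.17, 95% interval 0.23 to 0.99), a 1.52-fold higher level, with an unadjusted p of 0.00558 and an adjusted p of 0.354 from limma. Within the low set it was 0.39 and within the high set 0.68, and the lack of overlap fixed the sign of both. With arrays weighted by how closely each fitted the label model, the difference was 0.81 and passed (adjusted p = 0.0350 from limma). This was the only setting of the 18 tried in which a member passed. In that setting 360 of all probe sets passed, against 14 in the reported fit.

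The other *Nrarp* probe set (1417986_at) differed less. It read 7.53, 7.55 and 7.73 in the arrays labelled SCLtg LMO1tg and 7.35, 7.53 and 7.40 in those labelled control. The labels overlapped narrowly, SCLtg LMO1tg replicate 1 lying just under control replicate 2, and the difference was 0.18 (SE 0.14, 95% interval −0.14 to 0.49, adjusted p = 0.690 from limma), or 0.29 and 0.063 within the low and the high set.

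*Dtx1*, which encodes a ubiquitin ligase that acts on Notch signalling, was read by a single probe set (1425822_a_at). It gave 10.19, 10.39 and 10.41 in the arrays labelled SCLtg LMO1tg and 10.06, 10.08 and 9.69 in those labelled control. Each array labelled SCLtg LMO1tg exceeded each labelled control, the closest pair being SCLtg LMO1tg replicate 1 and control replicate 2. The difference was 0.38 (SE 0.16, 95% interval 0.024 to 0.74), a 1.30-fold higher level, with an unadjusted p of 0.0392 and an adjusted p of 0.540 from limma. Within the low and the high set it was 0.34 and 0.30.

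*Hes1*, the repressor gene by which Notch activity is often read, gave nearly the same value in 5 arrays. It stood at 8.59, 8.59 and 8.56 in the arrays labelled SCLtg LMO1tg and at 8.47, 8.67 and 7.57 in those labelled control. Control replicate 3 alone was low, and control replicate 2 was the highest of the 6. The SD was 0.018 (n = 3) under the first label and 0.59 (n = 3) under the second. The difference of 0.34 (SE 0.26, 95% interval −0.24 to 0.92, adjusted p = 0.681 from limma) rested on that array and was 0.0096 without control replicate 3. Within the low set it was 0.10 and within the high set, which holds control replicate 3, it was 0.47.

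**Figure D3:**
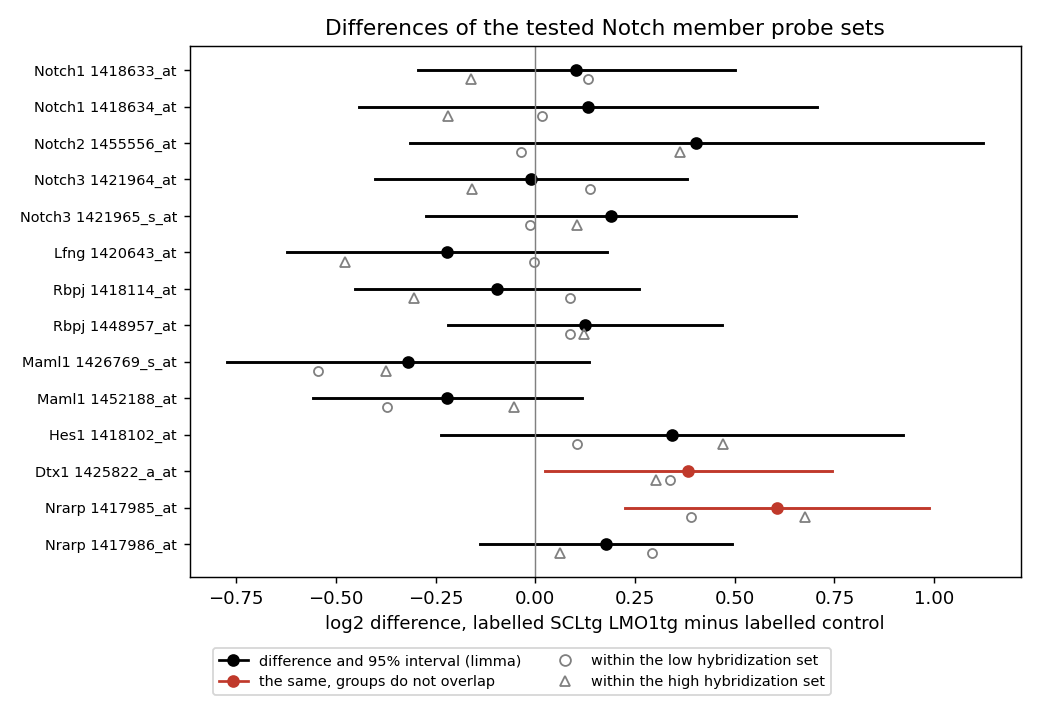
Difference between the labels (log2, labelled SCLtg LMO1tg minus labelled control, x axis) for the 14 tested member probe sets (y axis), as the limma estimate with its 95% interval, with the difference within the low (circle) and the high (triangle) hybridization set. The intervals of *Nrarp* 1417985_at (0.23 to 0.99) and *Dtx1* (0.024 to 0.74) lie above 0, neither passed after adjustment, and the other 12 intervals include 0.

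**Figure D4:**
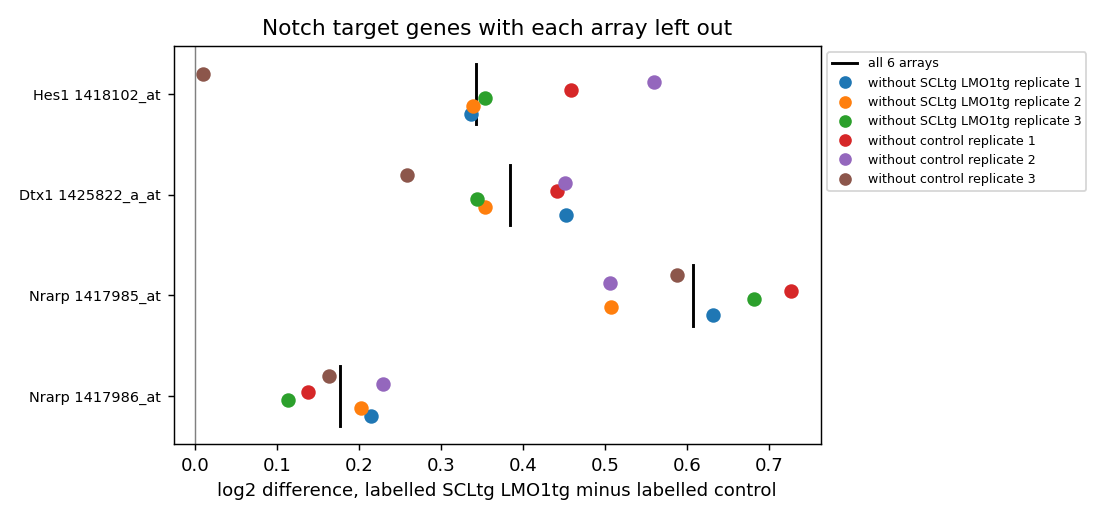
Difference between the labels (log2, x axis) for the 4 probe sets of the targets *Hes1*, *Dtx1* and *Nrarp* (y axis), with all 6 arrays (black bar) and with each array left out in turn (coloured points). *Hes1* falls to 0.0096 without control replicate 3, while *Nrarp* 1417985_at lies between 0.51 and 0.73 and *Dtx1* between 0.26 and 0.45.

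Marker lists of cell types moved in both directions between the labels, and of all their genes only *Ptcra* passed the test. The summed linear level of 10 neutrophil marker genes was 1448 to 3163 in the arrays labelled SCLtg LMO1tg and 636 to 1176 in those labelled control. All 10 were above the level for testing, 0 passed and 6 had an unadjusted p under 0.05 from limma, with a median difference of 1.13. Of all tested probe sets, 8.87% had an unadjusted p under 0.05. Markers of early T cell progenitors, of which 9 of 10 had a probe set and 1 passed (*Ptcra*), summed to 6559 to 8491 and 4720 to 5746, with 7 of the 9 genes above the level for testing. Erythroid markers, 5 of 9 measured, summed to 645 to 1335 and 480 to 655. Thymic epithelial markers, 8 of 9 measured, summed to 1266 to 1632 and 992 to 1167. The median differences of the early T cell, erythroid and epithelial lists were 0.26, 0.81 and 0.34. In that order, 3 of 8, 2 of 4 and 1 of 9 tested probe sets had an unadjusted p under 0.05 from limma. The neutrophil, early T cell and epithelial sums did not overlap between the labels, while the erythroid sums did. *Ptcra* is itself in the early T cell list and adds its own difference to the gap between those sums. That list is therefore no separate measure for *Ptcra*. Other lists had lower medians in the arrays labelled SCLtg LMO1tg, with overlapping sums. B cell markers, 7 of 8 measured, summed to 361 to 398 against 394 to 519 with a median difference of −0.39. Of their 5 tested probe sets, 2 had an unadjusted p under 0.05 from limma. Markers of double and single positive thymocytes, 5 of 8 measured, summed to 165 to 188 against 183 to 224 (median −0.20), and those of fibroblasts with endothelium, 8 of 8 measured, to 368 to 427 against 398 to 486 (median −0.16). Macrophage with dendritic cell markers, 7 of 8 measured, summed to 852 to 1115 against 871 to 935 (median −0.016). The part of these lists in the differences of *Nrarp*, *Dtx1* and *Ptcra* was not tested. An array value has no true 0, so no marker can be given as absent.

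The genes with the array pattern most like that of 2 members were found over the 6 arrays, as a description. For *Notch1* 1418634_at they were *Scaf8*, *Mterf2* and *Ube2j1* (Pearson r 0.9918, 0.9917 and 0.9915), and for *Nrarp* 1417985_at *Tada2a*, *Btbd10* and *Tssc4* (0.9938, 0.9934 and 0.9913). The differences between the labels were 0.037 to 0.099 for the first 3 and 0.33 to 0.41 for the second 3, all with adjusted p-values over 0.4 by limma. All arrays share the hybridization sets, and 6 points leave many probe sets with correlations near 1.

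None of the other genes of the pathway passed the test. Of 46 further pathway genes, 38 had a probe set and 35 were tested with 48 probe sets, of which 0 passed in either direction. Their median difference was −0.0061, and 8.33% of the 48 had no overlap between the labels, where 13.2% of all tested probe sets had none. The ligand genes *Dll1*, *Dll3*, *Dll4* and *Jag2* had differences between −0.16 and 0.12. The 7 genes of receptor cleavage, among them *Adam10*, *Adam17* and the gamma-secretase subunits, gave 13 tested probe sets with differences between −0.30 and 0.26 and adjusted p-values of 0.564 or more by limma. The sugar-adding enzymes other than *Lfng* differed by −0.23 to 0.12, and *Notch4* was too dim to test.

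The 4 pathway genes with the largest differences did not pass. *Cdk8*, a kinase that marks the intracellular domain for destruction, stood at 7.45 ± 0.46 (SD, n = 3) and 6.79 ± 0.53 (SD, n = 3), a difference of 0.66 (SE 0.30, adjusted p = 0.563 from limma) with overlap. *Cdk8* parted by hybridization set, by 0.92, and its difference was 0.41 and 0.39 within the sets and 0.40 with the set as a block. *Fbxw7*, the ubiquitin ligase subunit that then recognises it, differed by 0.60 (SE 0.21, adjusted p = 0.475 from limma) at 1451558_at without overlap between the labels, or 0.56 and 0.46 within the low and the high set. Its other probe set parted by hybridization set and differed by 0.24, or 0.20 and −0.079 within the sets and 0.062 with the set as a block. *Hdac1*, a corepressor deacetylase, differed by 0.46 without overlap, and *Kat2b*, an acetyltransferase coactivator, by 0.39 with overlap, at adjusted p-values of 0.499 and 0.599 from limma. Within the low and the high set *Hdac1* differed by 0.31 and 0.38 and *Kat2b*, which parted by hybridization set, by 0.18 and 0.30, or 0.24 with the set as a block.

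Among 22 further Notch targets of T cell progenitors, 1 passed, with a higher mean in the arrays labelled SCLtg LMO1tg. The other 18 of the 19 genes tested did not pass. The 33 tested probe sets had a median difference of −0.034, and 33.3% of them had no overlap between the labels, against 13.2% of all tested probe sets. The higher ones were 6 probe sets of 3 genes (*Ptcra*, *Il7r* and 4 of *Skp2*), and 5 were lower. Several of these probe sets read the same gene, and the list was chosen with earlier results of these data known. The share without overlap is therefore no result about the targets. *Ptcra*, which encodes the invariant chain of the pre-T cell receptor, was the gene that passed. Its printed promoter had 2 TGGGAA matches. The study also names *Ptcra* as a direct target of the transcription factors E2A and HEB, inhibited by SCL. The part of these factors in its difference was not tested. *Ptcra* stood at 10.35, 10.32 and 10.39 in the arrays labelled SCLtg LMO1tg and at 9.36, 8.96 and 8.90 in those labelled control. The labels were apart by 1.28 (SE 0.16, adjusted p = 0.0230 from limma). The differences within the low and high sets were 0.99 and 1.42. The call was lost without any 1 array other than control replicate 1, at adjusted p-values up to 0.194, and with arrays centred on their medians (0.0641).

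*Il7r*, the receptor of a survival cytokine of early T cells, read 9.14, 9.77 and 9.72 against 8.76, 8.34 and 7.95 in the arrays labelled control at 1448575_at. All arrays labelled SCLtg LMO1tg were higher, and the difference of 1.20 (SE 0.24) had an adjusted p of 0.191 from limma. Within the low and the high set it was 0.99 and 0.997. Rank products called this probe set, at a percentage of false positives of 0.02. It also passed with array weights (adjusted p = 0.0102 from limma), where 360 of all probe sets passed. The other *Il7r* probe set differed by 0.56 with overlap, or 0.94 and −0.12 within the sets. *Skp2*, which encodes a ubiquitin ligase subunit that promotes the cell cycle, had 4 tested probe sets with differences of 0.74 to 0.82 and no overlap (adjusted p = 0.237 to 0.434 from limma), and of 0.56 to 0.85 within the sets. A further *Skp2* probe set differed by −0.051, or 0.20 and −0.16 within the sets. *Runx1*, a transcription factor of blood progenitors, differed by −0.70 at 1427650_a_at (adjusted p = 0.284 from limma) without overlap, or −0.72 and −0.49 within the sets, and by −0.072 to −0.29 at its 4 other probe sets. Those 4 lay between −0.26 and 0.24 within the low set and between −0.71 and −0.17 within the high set. The remaining repressor targets lay near 0, with *Hes5* at 0.10 and 0.058, *Hey1* at −0.012 and *Heyl* at 0.14 and −0.20, and *Myc*, a growth regulator, at 0.12.

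**Figure D5:**
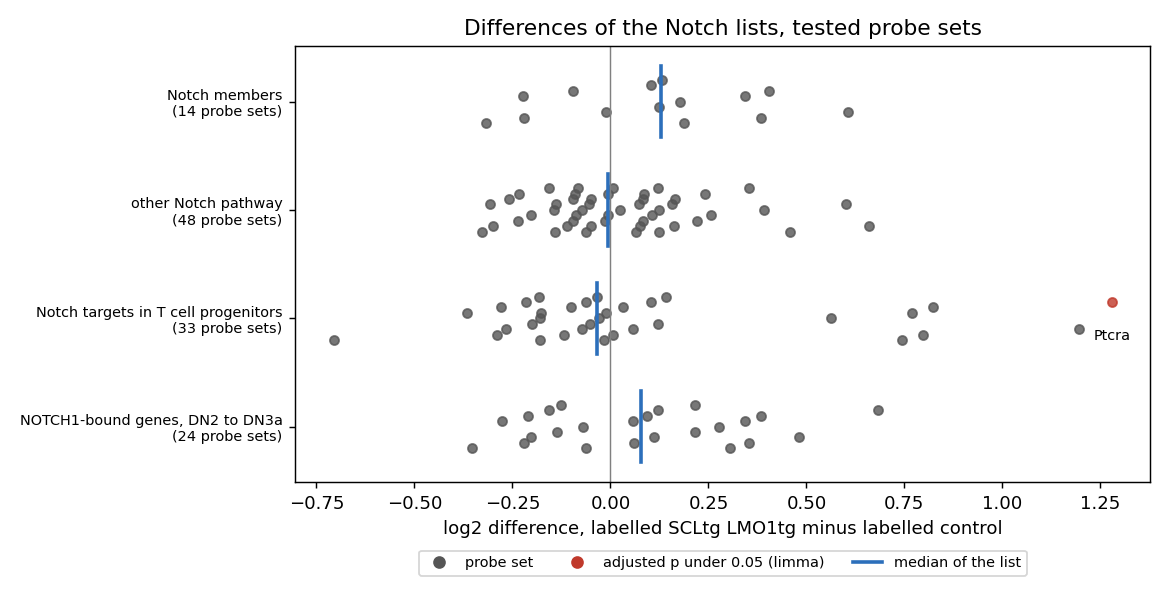
Difference between the labels (log2, x axis) of each tested probe set in 4 gene lists (y axis): the 9 members, the other pathway genes, the other Notch targets and the NOTCH1-bound genes, with the median of each list as a blue bar. *Ptcra*, at 1.28, is the only point past an adjusted p of 0.05, and the list medians lie between −0.034 and 0.13.

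The study lists genes bound by NOTCH1, and responsive to an inhibitor of its cleavage, that increase from the DN2 to the DN3a stage of the double negative thymocyte. All 25 genes of this list were examined. Of these, 18 had a probe set and were tested with 24 probe sets, and 0 passed, with a median difference of 0.077 and 16.7% without overlap between the labels, against 13.2% of all tested probe sets. *Hes1* and *Dtx1* belong to this list as well. The largest difference was that of *Prkca*, a protein kinase C gene, at 0.68 (SE 0.25, adjusted p = 0.487 from limma) with overlap. *Prkca* parted by hybridization set, at 7.31 in the low and 6.56 in the high set. Its difference was 0.42 and 0.56 within the low and the high set. *Ddb2*, a gene of DNA damage recognition, differed by 0.48 and 0.30 at its probe sets, which both parted by hybridization set. With the set as a block these were 0.27 and 0.054, and within the low and the high set 0.024 and 0.52 for the first and 0.027 and 0.081 for the second. The costimulatory receptor gene *Cd27* differed by −0.35, or −0.45 and −0.57 within the sets. *Tle3*, which encodes a Groucho corepressor, differed by 0.35 and −0.20, or −0.010 and 0.46 within the sets at the first probe set and 0.0041 and −0.37 at the second.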

How the data were processed

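RNA was amplified from thymocytes and hybridized to Affymetrix mouse genome arrays, 3 per genotype. The deposited values are log2 expression per probe set, which the authors summarized and normalized with the RMA procedure in affy, at a version not given in the sources used here. The authors then removed probe sets absent by MAS5 and applied Rank Products. The deposited values, from 2.36 to 14.12, still hold all probe sets.

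Of 22690 probe sets, 64 controls were left out. The platform annotation named 1 gene for 20380 of the rest, several for 691 and none for 1555, and 20351 matched RefSeq. For testing, a probe set had to reach its array's 40th percentile on at least 3 of 6 arrays, whatever their labels, and 13793 did. Differences between the labels were fitted in limma 3.58.1 (R 4.3.3) without covariates, at a Benjamini-Hochberg adjusted p under 0.05 over all tested probe sets. Rank products were recomputed from the 9 array pairs, with 100 permutations and a limit of 0.1 on the percentage of false positives, looser than the limit the study names for its list. The scripts were tested on simulated data. Exact permutation tests were used for the hybridization controls. Their 2 sets were defined from the arrays and are not groups of the study. Figures were drawn with matplotlib 3.10.9 in Python 3.11.15. The number of arrays limits the precision.

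The members and lists were chosen with earlier results of these data known. The text names all member probe sets, the transgenes and *Cd3e*, up to 4 other genes of each Notch list with the largest difference, every list gene that passed, and the 3 probe sets most correlated with *Notch1* and *Nrarp*. The ligands, *Adam10*, *Adam17*, *Notch4*, *Hes5*, *Hey1*, *Heyl* and *Myc* fall outside it, as their values were already known when they were picked. Alternatives were quantile normalization, median centring, no filter or one at the 60th percentile, trend and robust variance, array weights, blocks for the replicate number and for the hybridization set, rank products and each array left out.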

Additional observations from a re-analysis of the deposited data

How the results depend on the processing

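No member passed in any of 18 other settings except *Nrarp* 1417985_at with array weights, where 1 member and 360 of all probe sets passed (274 higher, 86 lower) against 14 in the reported fit. Rank products called 108 (47 higher, 61 lower), and leaving out 1 array 7 to 20. Over the members and settings, 229 values kept direction and side of the threshold, 11 turned sign and 1 newly passed. Settings with another filter, variance model or threshold, the replicate block and rank products keep the difference of the reported fit. The sign could not turn in those settings, which add no evidence on direction. The signs of 4 of 14 member probe sets turned. *Notch1* 1418633_at turned to −0.046 after quantile normalization and −0.015 with the hybridization set as a block. *Notch1* 1418634_at turned to −0.10 with that block and ranged from −0.0045 to 0.40 when 1 array was left out. *Notch3* 1421964_at turned to 0.038 with median centring and 0.18 with array weights, and ranged from −0.11 to 0.14 with 1 array left out, as *Rbpj* 1418114_at did from −0.18 to 0.0087. Without turning sign, *Notch2* 1455556_at ranged from 0.11 to 0.71, *Notch3* 1421965_s_at from 0.027 to 0.35 and *Hes1* from 0.0096 to 0.56 with 1 array left out. *Nrarp* 1417985_at kept its direction, at 0.39 to 0.81, and *Dtx1* at 0.24 to 0.45.

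Among other genes, *Skp2* 1425072_at turned to 0.019 with the hybridization block and ranged from −0.18 to 0.096 with 1 array left out, *Runx1* 1422864_at from −0.38 to 0.091 and *Runx1* 1422865_at from −0.30 to 0.087, and *Cd3e* turned to −0.082 after quantile normalization. The other pathway genes had 1 call with array weights (*Fbxw7*) and the NOTCH1-bound genes 0 in all settings. The target list had 0 calls with median centring, 5 with array weights, 3 with rank products and 0 to 1 with 1 array left out. The causes were not tested.

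Same-numbered arrays did not pair, with residual correlations of −0.632, 0.0536 and −0.382. With the replicate block 8 probe sets passed, 0 of the target list, and *Ptcra* had an adjusted p of 0.141.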
